A study of Mus musculus with 12 samples.

Results

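The genes described here are 32 genes of fatty acid uptake and oxidation, measured by microarray in the left ventricle of mice that lost the cardiac transcription factor Nkx2-5 from trabecular myocardium before birth. They were taken by name: every probe whose gene name on the array equals one of the 32 was used. All 32 had a probe well above background, out of 18021 gene names that passed the same filter and 34844 gene names on the array. Their representative probes were above background on all 12 arrays.

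The study asked how the time of Nkx2-5 loss from the trabeculae shapes the adult heart. Hearts were collected at 6 months of age, and the free wall of the left ventricle with the apex, without the septum, was profiled from 1 mouse per array, with 4 mice in each of 3 groups. In the Nkx2-5ΔTrbE10 group (TrbE10) tamoxifen was given to the pregnant mother on E10.5 and again on E11.5. In the Nkx2-5ΔTrbE14 group (TrbE14) it was given on E13.5 and again on E14.5. Both carried floxed Nkx2-5-ΔNeo alleles and a tamoxifen-inducible Cre, creERT2, inserted at Cx40 (Gja5), a gene expressed in embryonic trabecular myocardium. Recombination was thus directed to trabecular cells before birth, whereas the RNA came from the whole adult wall. By the paper's lineage tracing, cells labelled at the earlier stage later lay across the left ventricle, its compact layer included. Those labelled at the later stage were confined to the inner part of its wall. Control mice carried the floxed alleles without the Cre. The methods call them littermates of the mutants, which would make them pups of treated mothers, whereas the labels describe them as not injected, so that their exposure to tamoxifen is not settled. Pups of treated mothers were delivered by caesarean section and raised by CD1 foster mothers.

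Signal of Nkx2-5 itself was checked first. It was 11.95, 12.23, 11.93 and 11.88 on the log2 scale in the 4 control hearts, 11.27, 11.67, 11.21 and 11.22 in TrbE10, and 11.12, 11.56, 11.32 and 11.62 in TrbE14. Every mutant heart lay below every control heart, by 0.65 ± 0.14 (SE) on average in TrbE10 (limma adjusted p = 0.0471) and by 0.59 ± 0.14 in TrbE14 (adjusted p = 0.107). Whether this probe lies within the deleted part was not determined. The 8 control and TrbE14 arrays shared 1 slide and the 4 TrbE10 arrays were on another, so that slide and group cannot be told apart for TrbE10. Signal from Y-linked genes was present in 1 control, 2 TrbE10 and 3 TrbE14 hearts. The 75th percentile of the processed signal ran from 195 to 250 over the 12 arrays.

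The adult heart draws most of its energy from long-chain fatty acids. They are freed from circulating lipoproteins, carried into the cardiomyocyte, bound to coenzyme A, moved across the mitochondrial membranes as carnitine esters, and then shortened a pair of carbons at a time in the matrix. The electrons released pass through the electron-transfer flavoprotein to the respiratory chain. Many genes of this route are targets of the nuclear receptor PPARα, the estrogen-related receptors and their coactivator PGC-1α, and the route is known to respond to fasting and to decline in cardiac hypertrophy and failure.

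The sequences shown first are those the later values refer back to. RefSeq promoters (GRCm38.p6) were found for 27 of the 32 genes, and were searched on both strands for AGGTCA, the half-site that PPAR and estrogen-related receptors bind. Of the 30 promoters of these 27 genes, 6 held at least 1 half-site (20%), against 16.3% of all 32851 promoters. They belonged to Acadm, Acadvl, Cd36, Cpt1a, Echs1 and Ucp3. A pair of half-sites spaced by 1 base and relaxed at 1 base of each (AGGNCANAGGNCA, N being any base) was in none of the 27 and in 0.381% of all promoters, and the estrogen-related receptor element TNAAGGTCA, which contains the half-site, was in none of the 27 and in 1.28% of all. The 250 bases before the start site are printed for the 3 half-site genes that are described heart by heart below, 5′ to 3′ on the strand of the gene, with half-sites in either direction in capitals. They lie at chr19:3323051-3323300 (plus strand) for Cpt1a, chr7:140116422-140116671 (minus strand) for Echs1 and chr7:100472741-100472990 (plus strand) for Ucp3.
Cpt1a: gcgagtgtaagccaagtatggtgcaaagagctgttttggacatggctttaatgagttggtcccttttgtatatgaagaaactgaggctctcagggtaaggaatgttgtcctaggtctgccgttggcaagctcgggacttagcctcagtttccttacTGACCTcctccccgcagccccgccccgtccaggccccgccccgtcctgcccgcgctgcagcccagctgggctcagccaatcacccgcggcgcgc
Echs1: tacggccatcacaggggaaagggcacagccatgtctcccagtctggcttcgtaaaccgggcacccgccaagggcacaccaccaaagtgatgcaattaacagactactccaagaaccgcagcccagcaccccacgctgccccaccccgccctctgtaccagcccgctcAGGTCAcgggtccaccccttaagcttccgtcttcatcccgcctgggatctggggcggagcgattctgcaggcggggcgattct
Ucp3: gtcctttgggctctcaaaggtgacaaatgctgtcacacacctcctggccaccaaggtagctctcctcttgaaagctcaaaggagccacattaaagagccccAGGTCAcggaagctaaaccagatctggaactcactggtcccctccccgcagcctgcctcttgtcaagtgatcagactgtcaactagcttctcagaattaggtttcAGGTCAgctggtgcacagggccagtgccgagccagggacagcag
Cpt1a and Echs1 held 1 half-site each in this window and Ucp3 held 2. A match to these letters is a description of the sequence and was not read as a binding site.

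No member of the 32 passed the test in TrbE10 against control, where 1.91% of all 18021 genes did (limma, Benjamini-Hochberg adjusted p under 0.05, and likewise 0 of 32 by SAM, the permutation test named in the methods). At an unadjusted p under 0.05, 7 members were lower and none was higher, that is 21.9% of the members against 8.86% of all genes lower and 7.82% higher. The difference was below 0 for 27 of 32 members (84.4%) and for 54.6% of all genes. The median difference of the members was -0.16 on the log2 scale, beside -0.02 over all genes, and ran from -0.82 (Hadh) to 0.51 (Ucp3). Most members thus lay slightly below control in TrbE10, each by less than the test could call.

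In TrbE14 against control no member was called either (0 of 32 by limma and by SAM), against 0.666% of all genes. At an unadjusted p under 0.05, 3 members were lower (9.38%) and none was higher, against 7.31% and 6.51% of all genes. The members were split evenly, with 16 of 32 below 0 against 55.7% of all genes, and their median was -0.0003 beside -0.03 over all genes. Scaling each array to its 75th percentile in place of quantile normalization put 23 of the 32 below 0 in TrbE14, with a median of -0.06 beside -0.06 over all genes.

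When the mutants were set directly against each other, no member was called (0 of 32 by limma, where 0% of all genes were called, and 0 of 32 by SAM). At an unadjusted p under 0.05, 1 member, Echs1, was lower in TrbE10 and none was higher, against 3.04% and 2.92% of all genes. The signal in TrbE10 was below that in TrbE14 for 29 of 32 members (90.6%, against 48.8% of all genes), with a median difference of -0.16 beside 0.005 over all genes. The TrbE10 hearts lay wholly below the TrbE14 hearts for 3 members, Echs1, Hadha and Slc27a1, and wholly above for none, against 1.71% and 1.63% of all genes.

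**Figure D1:**
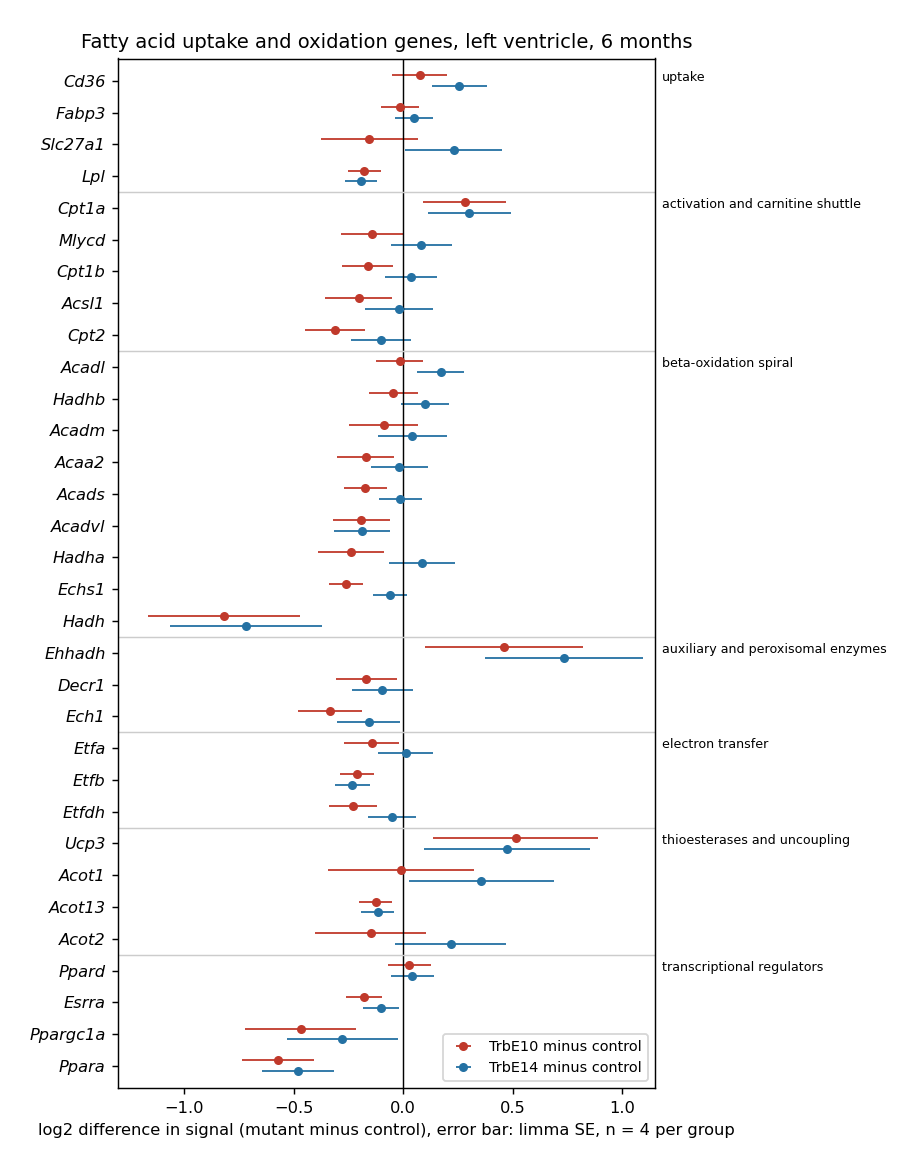
Log2 difference in signal between each mutant and control (horizontal axis) for the 32 genes (vertical axis), grouped by role; points are TrbE10 (red) and TrbE14 (blue) and bars are the limma standard error with 4 hearts per group. Most red points lie left of 0 (27 of 32), the blue points are split 16 and 16, and Hadh, Ehhadh and Ucp3 have the widest error bars together with Acot1.

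The shift in TrbE10 was not equal among its hearts. Measured as the median over the 32 genes of each heart's deviation from the control mean, the 4 TrbE10 hearts were at -0.37, -0.05, -0.18 and -0.03. The TrbE14 hearts were at -0.05, -0.07, -0.02 and 0.06, and the control hearts at 0.0004, -0.14, 0.05 and 0.07. TrbE10 replicate 1 was lowest, with 28 of 32 genes below the control mean, and replicates 2 and 4 lay within the range of the controls. Without replicate 1 the median difference of the members in TrbE10 was -0.08, and that between TrbE10 and TrbE14 was -0.06.

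**Figure D2:**
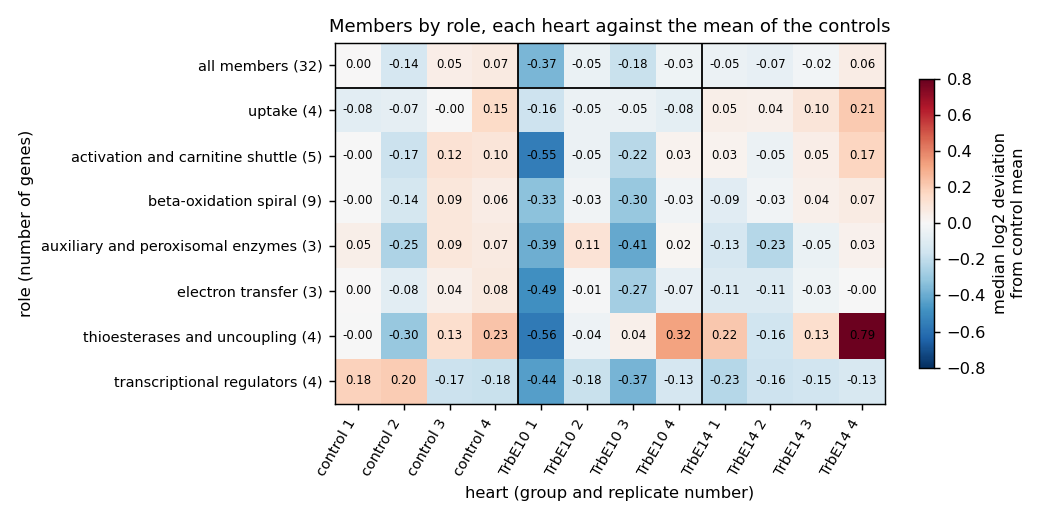
Median log2 deviation from the control mean in each heart (columns) over all 32 genes and over the genes of each role (rows, number of genes in brackets), with blue below and red above the control mean. TrbE10 replicate 1 is at or below -0.33 in every role except uptake, and the transcriptional regulators are below 0 in all 8 mutant hearts and in control hearts 3 and 4.

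Among the markers of other cells, the summed signals of the macrophage and endothelial lists lay wholly above control in both mutants. The 8 measured macrophage genes had a summed signal of 8381 to 10511 in control hearts, 15809 to 18424 in TrbE10 and 13761 to 14847 in TrbE14, and 4 of them were called higher in TrbE10 and 1 in TrbE14. The 8 endothelial genes summed to 11202 to 12126 in control, 12727 to 15805 in TrbE10 and 14247 to 16613 in TrbE14. None of the endothelial genes was called, and 1 of the 8 was lower in each mutant. Cdh5 was above control in every heart of both mutants, by 0.33 and 0.40. In TrbE10 it was the 1 gene wholly above control (all genes: 4.97%), and TrbE14 had 3 (all genes: 4.66%). By the median over the endothelial list, TrbE10 replicate 4 (0.07) lay below control replicate 3 (0.08). The summed signal of 14 cardiomyocyte genes overlapped between the groups. It spanned 1444719 to 1537443 in control hearts, 1459860 to 1481848 in TrbE10 hearts and 1413598 to 1484298 in TrbE14 hearts. Its genes had a median difference of -0.12 in TrbE10 and -0.02 in TrbE14, with none called. By the median over the list, the TrbE10 hearts were at -0.05, -0.09, -0.10 and -0.14, all below the control hearts (-0.03 to 0.04). The TrbE14 hearts, at -0.07 to 0.02, overlapped control. In TrbE10, 11 of the 14 genes were below control (all genes: 54.6%), and 4 lay wholly below it (all genes: 5.48%).

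Adipocytes also express Lpl and Cd36, and 7 of 8 adipocyte genes were measured. Their summed signal of 53679 to 61834 in control, 41393 to 84103 in TrbE10 and 52662 to 87770 in TrbE14 was carried by Fabp4 and Plin4, at 15.10 and 14.34 on the log2 scale in control. The other 5, Adipoq, Cfd, Cidec, Plin1 and Retn, differed by -1.52 to -1.06 in TrbE10 with none called. By the median over the list, 6 of 7 genes lay below control in each mutant (-1.27 in TrbE10 and -0.27 in TrbE14), and TrbE10 replicate 2 stood lowest of all hearts at -2.83. Brown adipocyte genes (3 of 4 measured) summed to 295056 to 338758 in control, 234683 to 275488 in TrbE10 and 272325 to 299436 in TrbE14. Cox7a1, a cytochrome oxidase subunit of heart and muscle, gave most of that sum, and Ucp1, the defining gene, was above background on 1 of 12 arrays. Of 3 measured skeletal muscle genes, Tnni2 was called lower in TrbE10 (-1.38, limma adjusted p = 0.0193). The part of these cells in the members' differences was not tested. In bulk tissue, fewer cells of a type and less RNA per cell cannot be told apart.

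Among the 4 uptake genes, Lpl, lipoprotein lipase, which frees fatty acids from triglyceride-rich lipoproteins at the capillary wall, separated both mutants from control. Its signal was 16.68, 16.55, 16.59 and 16.57 in control hearts, 16.28, 16.44, 16.45 and 16.51 in TrbE10, and 16.36, 16.36, 16.44 and 16.46 in TrbE14. All 8 mutant hearts lay below all 4 control hearts. The difference was small, at -0.18 ± 0.07 in TrbE10 (limma adjusted p = 0.271) and -0.19 ± 0.07 in TrbE14 (adjusted p = 0.297).

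A second Lpl probe did not show it. The representative probe lies at chr8:71430267-71430326 and the second 5217 bases nearer the 5′ end of the gene, at chr8:71425050-71425109 (mm9, plus strand, as the array files give them), where the differences were -0.05 ± 0.16 in TrbE10 and 0.09 ± 0.16 in TrbE14. The sequence of this second probe is shown because the 2 probes of the gene gave different values.
Lpl, second probe: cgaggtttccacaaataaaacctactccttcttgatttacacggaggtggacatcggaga
The 3 other uptake genes are the membrane transporters Cd36 and Slc27a1 (fatty acid transport protein 1) and the cytosolic carrier Fabp3. The difference for Cd36 was 0.08 ± 0.13 in TrbE10 and 0.26 ± 0.13 in TrbE14, that for Slc27a1 was -0.15 ± 0.22 and 0.23 ± 0.22, and that for Fabp3 was -0.01 ± 0.09 and 0.05 ± 0.09.

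Of the genes for activation and the carnitine shuttle, Cpt1a was among the 3 largest increases in TrbE10. Cpt1a and Cpt1b encode the liver and muscle forms of carnitine palmitoyltransferase 1, the step that commits acyl groups to the mitochondrion. Cpt1a signal was 9.89, 10.17, 10.33 and 10.17 in control hearts, 10.30, 9.95, 10.78 and 10.64 in TrbE10, and 10.38, 10.15, 10.44 and 10.78 in TrbE14. Both mutant groups overlapped the controls, and the differences of 0.28 ± 0.19 (limma adjusted p = 0.498) and 0.30 ± 0.19 (adjusted p = 0.5) did not pass the test. With TrbE10 replicate 3 left out, Cpt1a differed by 0.16 in TrbE10, and with replicate 2 left out by 0.44.

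Cpt1b, the form that predominates in adult heart, differed by -0.16 ± 0.12 in TrbE10 and 0.04 ± 0.12 in TrbE14. The change of Cpt1a relative to Cpt1b was therefore positive in both mutants, by 0.44 on the log2 scale in TrbE10 and 0.27 in TrbE14, with an SD between hearts of 0.41 in TrbE10, 0.18 in TrbE14 and 0.19 in control. Neither was past the threshold (exact two-sided permutation test over 70 label orders, p = 0.114 in each, where the smallest possible is 0.0286). Without TrbE10 replicate 2 the value in TrbE10 was 0.63 (exact permutation p = 0.0286). That test had fewer than 70 label orders, and this p is the smallest they allow. The heart left out, at -4.03, lay within the control range of -4.10 to -3.73. All these values rest on the representative probe of each gene. A second Cpt1b probe gave -0.22 ± 0.12 in TrbE10 and -0.18 ± 0.12 in TrbE14. For Cpt1a a second, dimmer probe gave 0.34 ± 0.22 and 0.48 ± 0.22 (limma adjusted p = 0.476 and 0.365).

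The shuttle is completed by Cpt2, which regenerates acyl-CoA inside the mitochondrion, Acsl1, which activates fatty acids with coenzyme A, and Mlycd, malonyl-CoA decarboxylase, which removes the inhibitor of carnitine palmitoyltransferase 1. Cpt2 differed by -0.31 ± 0.14 in TrbE10 (limma adjusted p = 0.294) and -0.10 ± 0.14 in TrbE14. Acsl1 differed by -0.20 ± 0.15 and -0.02 ± 0.15, and Mlycd by -0.14 ± 0.14 and 0.08 ± 0.14.

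All 9 enzymes of the β-oxidation spiral were below control in TrbE10, by between 0.02 and 0.82 on the log2 scale, and 5 of 9 were in TrbE14; none was called. Echs1, the short-chain enoyl-CoA hydratase of the second step, was the tightest of them. Its signal was 14.52, 14.39, 14.61 and 14.59 in control hearts, 14.22, 14.35, 14.23 and 14.27 in TrbE10, and 14.38, 14.54, 14.41 and 14.54 in TrbE14. The TrbE10 hearts lay wholly below both the control and the TrbE14 hearts, while TrbE14 overlapped control.

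The difference for Echs1 in TrbE10 was -0.26 ± 0.08 (limma adjusted p = 0.13), and -0.06 ± 0.08 in TrbE14 (adjusted p = 0.75). Between the mutants it was -0.20 ± 0.08 (adjusted p = 0.814). The probe lies at chr7:147291772-147291831 (mm9, minus strand), and the promoter printed above belongs to this gene. Its pooled SD within groups was 0.08, among the 4 smallest of the 32 genes.

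Hadh, the medium- and short-chain 3-hydroxyacyl-CoA dehydrogenase of the third step, showed the largest decrease of any member and wide scatter. Its signal was 13.91, 14.19, 13.91 and 13.76 in control hearts, 12.48, 12.93, 13.39 and 13.69 in TrbE10, and 12.46, 12.72, 13.77 and 13.95 in TrbE14. The 4 TrbE10 hearts lay below every control heart, replicate 4 only narrowly, whereas TrbE14 held 2 hearts well below and 2 within the control range.

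The Hadh difference was -0.82 ± 0.35 in TrbE10 (limma adjusted p = 0.276) and -0.72 ± 0.35 in TrbE14 (adjusted p = 0.391). The range within each mutant group exceeded the difference itself, at 1.22 in TrbE10 and 1.5 in TrbE14, against 0.42 in control. Without TrbE14 replicate 1 the TrbE14 value was -0.46. The single Hadh probe lies at chr3:130936889-130936948 (mm9, minus strand).

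The wholly separated members can be read against the whole array. In TrbE10, Lpl, Echs1 and Hadh were the 3 of 32 genes (9.38%) whose hearts all lay below control, against 5.48% of all genes, and none lay above, against 4.97%. In TrbE14 they were Lpl, Etfb and Ppara, against 5.32% of all genes, and again none lay above, against 4.66%.

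The first step of the spiral is taken by acyl-CoA dehydrogenases of different chain length. Acadvl (very long chain) differed by -0.19 ± 0.13 in both mutants, Acadl (long chain) by -0.02 ± 0.11 in TrbE10 and 0.17 ± 0.11 in TrbE14, Acadm (medium chain) by -0.09 ± 0.16 and 0.04 ± 0.16, and Acads (short chain) by -0.17 ± 0.10 and -0.01 ± 0.10. Hadha and Hadhb, the subunits of the mitochondrial trifunctional protein, which carries out the last 3 steps on long chains, differed by -0.24 ± 0.15 and -0.05 ± 0.11 in TrbE10 and by 0.09 ± 0.15 and 0.10 ± 0.11 in TrbE14. Acaa2, a matrix thiolase that releases acetyl-CoA, differed by -0.17 ± 0.13 and -0.02 ± 0.13.

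The auxiliary enzymes Decr1 (dienoyl-CoA reductase) and Ech1 (dienoyl-CoA isomerase) prepare unsaturated fatty acids for the spiral, and Ehhadh is the bifunctional enzyme of the peroxisome, a classical PPARα target. Decr1 differed by -0.17 ± 0.14 in TrbE10 and -0.10 ± 0.14 in TrbE14, and Ech1 by -0.33 ± 0.15 (limma adjusted p = 0.288) and -0.16 ± 0.15.

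Ehhadh had values of the opposite sign. Its signal was 8.07, 7.84, 8.48 and 7.97 in control hearts, 7.75, 8.60, 8.87 and 8.99 in TrbE10, and 8.08, 8.43, 9.0 and 9.79 in TrbE14. In TrbE10 3 hearts and in TrbE14 2 hearts were above every control heart. The differences, 0.46 ± 0.36 in TrbE10 (limma adjusted p = 0.57) and 0.73 ± 0.36 in TrbE14 (adjusted p = 0.396), were the second-largest and the largest increase of any member but did not pass the test. The TrbE10 value was 0.73 without TrbE10 replicate 1, and the TrbE14 value was 0.41 without TrbE14 replicate 4.

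Electron transfer is served by the subunits Etfa and Etfb of the electron-transfer flavoprotein and by Etfdh, its ubiquinone oxidoreductase. Etfb signal was 17.03, 16.95, 17.03 and 17.11 in control hearts, 16.74, 16.88, 16.69 and 16.96 in TrbE10, and 16.81, 16.80, 16.76 and 16.83 in TrbE14. All TrbE14 hearts and 3 of the 4 TrbE10 hearts lay below every control heart. The difference was -0.21 ± 0.08 in TrbE10 (limma adjusted p = 0.214) and -0.23 ± 0.08 in TrbE14 (adjusted p = 0.255). Etfa differed by -0.14 ± 0.13 and 0.01 ± 0.13, and Etfdh by -0.23 ± 0.11 and -0.05 ± 0.11. The Etfb probe lies at chr7:50713092-50713151 (mm9, plus strand).

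Ucp3, the muscle uncoupling protein of the inner mitochondrial membrane, had the largest increase in TrbE10 and the most scatter of the 32 genes (pooled SD within groups 0.59). Its signal was 9.01, 9.33, 9.80 and 10.41 in control hearts, 9.90, 9.41, 10.56 and 10.73 in TrbE10, and 9.96, 9.41, 10.52 and 10.56 in TrbE14. In each mutant, replicates 3 and 4 lay above every control heart and the other hearts were among the controls. The differences were 0.51 ± 0.38 (limma adjusted p = 0.538) and 0.47 ± 0.38 (adjusted p = 0.585). They were 0.30 and 0.26 without control replicate 1, and 0.77 and 0.73 without control replicate 4.

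The representative Ucp3 probe lies at chr7:107630399-107630458 (mm9, plus strand), and its sequence is shown because a second probe, 3892 bases further along the gene, gave larger differences, of 0.94 ± 0.60 in TrbE10 and 1.47 ± 0.60 in TrbE14 (limma adjusted p = 0.47 and 0.322).
Ucp3, representative probe: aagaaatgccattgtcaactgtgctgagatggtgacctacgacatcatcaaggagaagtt
The promoter of Ucp3 printed above was the only one of the 27 found to hold 2 half-sites.

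The thioesterases Acot1 (cytosolic), Acot2 (mitochondrial) and Acot13 cleave acyl-CoA back to free fatty acid. Acot1 signal was 10.26, 9.67, 10.38 and 10.47 in control hearts, 9.31, 10.72, 10.19 and 10.53 in TrbE10, and 10.78, 10.14, 10.10 and 11.18 in TrbE14. The groups overlapped throughout. The difference was -0.01 ± 0.33 in TrbE10 (limma adjusted p = 0.993) and 0.36 ± 0.33 in TrbE14 (adjusted p = 0.644), where it was the third-largest increase. Leaving out TrbE14 replicate 4 lowered the value in TrbE14 to 0.15. Acot2 differed by -0.15 ± 0.25 and 0.22 ± 0.25, and Acot13 by -0.13 ± 0.07 and -0.12 ± 0.07. Acot1 and Acot2 are close paralogues, and whether their probes bind each other's transcript was not tested.

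Of the transcriptional regulators, Ppara, which encodes the nuclear receptor PPARα, came closest to the threshold of any member in TrbE10. Its signal was 12.66, 12.64, 12.12 and 12.12 in control hearts, 11.74, 12.18, 11.60 and 11.72 in TrbE10, and 11.95, 12.06, 11.83 and 11.77 in TrbE14. Every mutant heart except TrbE10 replicate 2 lay below the lowest control. Control hearts 1 and 2 were higher than control hearts 3 and 4. The difference was -0.57 ± 0.16 in TrbE10 (limma adjusted p = 0.113) and -0.48 ± 0.16 in TrbE14 (adjusted p = 0.256). Without TrbE10 replicate 2 it was -0.70 in TrbE10 (limma adjusted p = 0.0428), and Ppara was then the only member called.

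The 2 other Ppara probes pointed the same way. They lie 424 and 5083 bases from the representative one, which is at chr15:85632110-85632169 (mm9, plus strand). The nearer gave -0.45 ± 0.14 in TrbE10 and -0.28 ± 0.14 in TrbE14, and the farther gave -0.75 ± 0.18 (limma adjusted p = 0.0674) and -0.60 ± 0.18 (adjusted p = 0.206). On the nearer probe TrbE14 overlapped control, with TrbE14 replicates 1 and 2 (10.25 and 10.28) above control replicate 3 (10.12). Over all members with more than 1 probe, 6 of 12 additional filtered probes kept the sign of the representative probe in both mutants. Of the 6 that did not, all belonged to genes whose representative difference was 0.31 or less in size: Acsl1, Cpt1b, Cpt2, Decr1, Fabp3 and Lpl.

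Ppargc1a, which encodes the coactivator PGC-1α, had the third-largest decrease in both mutants. Its signal was 12.86, 12.90, 11.97 and 11.88 in control hearts, 11.70, 11.83, 11.83 and 12.38 in TrbE10, and 11.83, 12.04, 12.32 and 12.31 in TrbE14. Control hearts 1 and 2 stood well above control hearts 3 and 4, as they did by less for Ppara, and all 8 mutant hearts lay below the upper pair. TrbE10 replicate 4 and TrbE14 replicates 3 and 4 were about midway between the pairs, and the other mutant hearts were at or near the lower pair. The difference was -0.47 ± 0.25 in TrbE10 (limma adjusted p = 0.391) and -0.28 ± 0.25 in TrbE14 (adjusted p = 0.635). Without control replicate 2 it was -0.30 and -0.11, and without control replicate 4 it was -0.64 and -0.45.

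Esrra, the estrogen-related receptor α, differed by -0.18 ± 0.08 in TrbE10 and -0.10 ± 0.08 in TrbE14. Ppard, the receptor PPARδ, differed by 0.03 ± 0.10 and 0.04 ± 0.10; its second probe was not above background on any array.

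**Figure D3:**
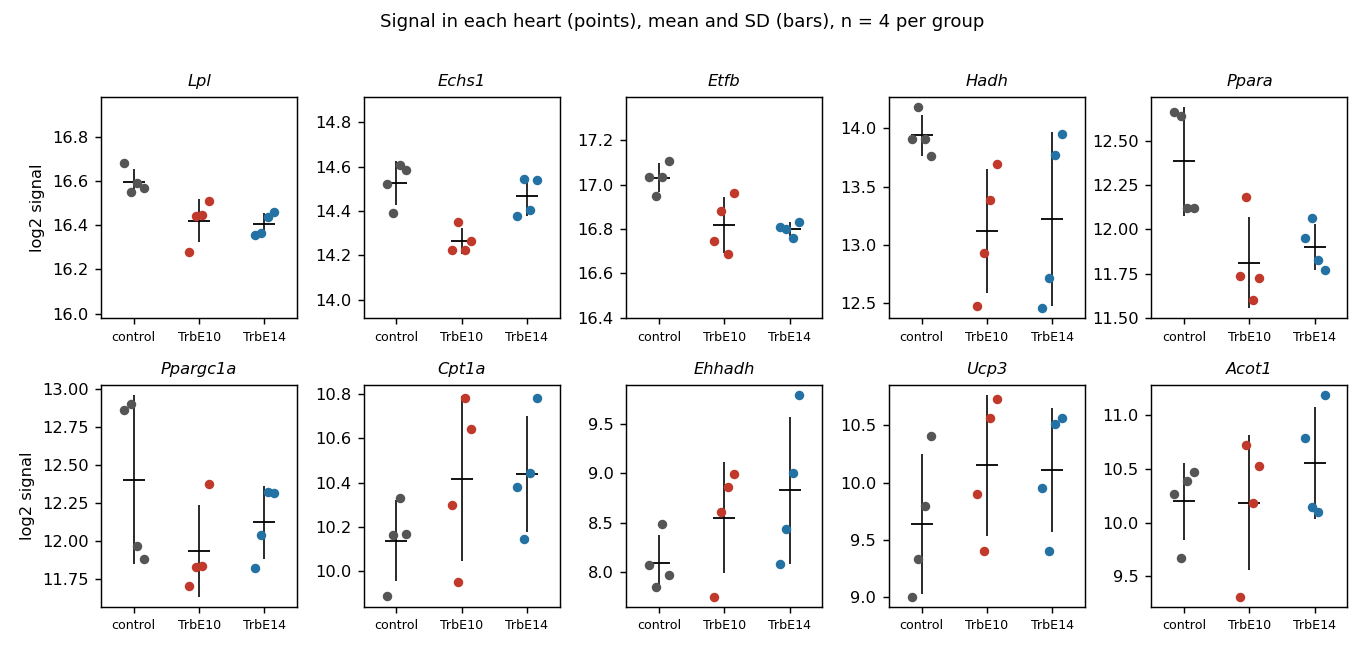
Log2 signal (vertical axes, each with its own range) in each heart of the control, TrbE10 and TrbE14 groups for the 10 genes described heart by heart; points are hearts and bars are the mean and SD of 4. Lpl has all 8 mutant hearts below the controls, Echs1 has only TrbE10 below, Ppara and Ppargc1a have a divided control group, and Ehhadh and Ucp3 are spread widely within each mutant.

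Spread within groups differed among the members, without a clear break between steady and variable genes. The pooled SD within groups was under 0.2 for 18 of 32 genes, with a median of 0.19 beside 0.21 over all genes. It was over 0.3 for 7 genes, which in order were Ucp3 (0.59), Ehhadh (0.56), Hadh (0.54), Acot1 (0.51), Ppargc1a (0.39), Acot2 (0.39) and Slc27a1 (0.33). It was smallest for Lpl (0.07), Acot13 (0.07), Echs1 (0.08) and Etfb (0.08). A difference of 0.2 exceeded this SD for these 4 and not for the 7 above, though none of them was called.

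Of 72 other genes of the pathway, 67 were measured. By its representative probe, none was called in either mutant or between the mutants by limma. At an unadjusted p under 0.05, 15 were lower (22.4%, against 8.86% of all genes) and 3 higher (4.48%, against 7.82%) in TrbE10. In TrbE14 4 were lower (5.97%, against 7.31% of all genes) and 6 higher (8.96%, against 6.51%). SAM called 2 in TrbE14, Mgll among them, and none in TrbE10. For Mgll the representative probe gave 0.55 ± 0.15 in TrbE14 (limma adjusted p = 0.15). A dimmer Mgll probe gave 0.68 ± 0.12 (limma adjusted p = 0.0353) and another gave 0.50 ± 0.16 (limma adjusted p = 0.214). The median difference of the 67 was -0.11 in TrbE10, with 48 of 67 below 0 (71.6%, against 54.6% of all genes), and -0.01 in TrbE14, with 36 of 67 below 0 (53.7%, against 55.7%). The 21 further mitochondrial and peroxisomal enzymes were below 0 in 19 cases in TrbE10 and in 11 in TrbE14.

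The other pathway genes with the largest differences were led by targets of PPARα and by fat storage and uncoupling genes. Angptl4, a secreted inhibitor of lipoprotein lipase, had a signal of 10.25, 10.02, 11.26 and 10.48 in control hearts, 9.47, 11.16, 12.91 and 12.66 in TrbE10, and 11.29, 11.55, 12.42 and 12.97 in TrbE14. All TrbE14 hearts lay above the controls, by 1.55 ± 0.68 on average (limma adjusted p = 0.35), whereas the TrbE10 hearts spanned more than the controls on both sides (1.05 ± 0.68, adjusted p = 0.479).

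Pdk4, the kinase that restrains pyruvate oxidation, was at 14.15, 13.88, 13.96 and 13.20 in control hearts, 13.05, 13.31, 14.76 and 15.19 in TrbE10, and 14.29, 13.53, 14.99 and 15.45 in TrbE14. Replicates 3 and 4 of each mutant, and TrbE14 replicate 1, stood above every control heart. The differences were 0.28 ± 0.52 in TrbE10 and 0.77 ± 0.52 in TrbE14 (limma adjusted p = 0.834 and 0.526). Ucp2, a relative of Ucp3, differed by 0.64 ± 0.40 and 0.51 ± 0.40 (adjusted p = 0.462 and 0.581). Dgat2, which makes triglyceride, differed by -0.60 ± 0.19 in TrbE10 with all 4 hearts below control (adjusted p = 0.141) and by -0.29 ± 0.19 in TrbE14 (adjusted p = 0.513).

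**Figure D4:**
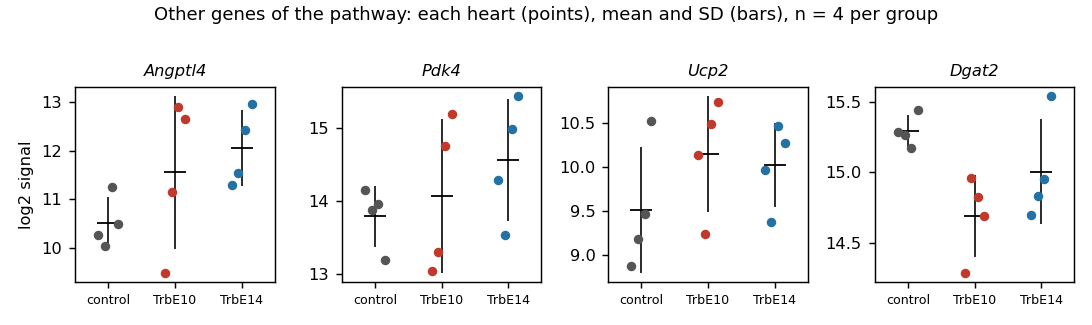
Log2 signal (vertical axes, each with its own range) in each heart of the 3 groups for 4 other genes of the pathway; points are hearts and bars are the mean and SD of 4. All TrbE14 hearts are above control for Angptl4, all TrbE10 hearts are below control for Dgat2, and Pdk4 and Ucp2 overlap between groups.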

How the data were processed

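RNA was labelled with 1 colour and hybridised by the authors to SurePrint G3 Mouse GE 8x60K arrays, and intensity was read with Agilent Feature Extraction 10.5. The deposited scanner intensity files are not yet normalized between arrays. The deposited value table holds 22114 rows of log2 values, normalized by quantiles and filtered by the authors; it correlated at 0.997 or more with the log2 scanner values, and served as an alternative. Here, log2 processed signals were quantile-normalized, spots of a probe were averaged without outlier spots, and probes well above background on 3 of 4 arrays of any group were kept (24593 of 55681). Each gene was represented by its brightest kept probe. Differences were tested with limma 3.58.1 in R 4.3.3 over all 12 arrays and adjusted by Benjamini-Hochberg over all kept probes. Errors marked ± are its SE. P-values measure the spread between these mice, and precision is limited by 4 arrays per group. Members and gene lists were chosen with earlier results of these data known. All members are named; heart-by-heart values are given for those not overlapping control and for the 3 largest increases and decreases in each mutant. Other pathway genes are named if called, or among the 3 largest differences, except that 1 is not reported here; further named genes were chosen after their values were seen. The script was tested on simulated data.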

Additional observations from a re-analysis of the deposited data

Results flagged for a closer look

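A single heart stood far from the other 3 of its group for 2 members. Decr1 was at 15.62 in control replicate 2, against 15.96 in the nearest and 15.99 in the farthest of the other controls. Slc27a1 was at 11.29 in TrbE10 replicate 2, against 11.62 in the nearest and 11.63 in the farthest of the other TrbE10 hearts. Of 96 groups of 4 hearts examined (32 genes in 3 groups), 2 stood apart in this way by Dixon's test, where chance gives about 5%.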

How the results depend on the processing

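The count of members called was 0 in all 3 comparisons under the 10 alternatives that kept all arrays (another scaling, background correction, filter, the authors' values, fewer groups, the replicate block, Y-linked signal, probe averaging and SAM). Ppara in TrbE10 came closest to a call among them, at 0.0509 (the smallest limma adjusted p or SAM q value). Leaving out 1 array gave 0 to 1 member called in TrbE10 against control, and 0 to 0 in the other comparisons; the 1 was Ppara, without TrbE10 replicate 2. The members' median lay between -0.21 and -0.08 in TrbE10, between -0.04 and 0.03 in TrbE14 and between -0.22 and -0.06 for TrbE10 against TrbE14 when 1 array was left out. Under the other alternatives the lowest and highest were -0.25 and -0.15, -0.10 and 0.01, and -0.18 and -0.10. Another filter, no filter, fewer groups and the replicate block could not move these medians. The representative probes pass every filter, and each replicate number occurs once per group. Cpt1a relative to Cpt1b was 0.32 to 0.63 in TrbE10 with 1 array left out, and 0.20 to 0.33 in TrbE14. Under the alternatives that kept all arrays it was 0.39 to 0.55 in TrbE10 and 0.23 to 0.47 in TrbE14. It passed the threshold only without TrbE10 replicate 2 (0.63). Other pathway genes called numbered 0 to 1 in TrbE10 with 1 array left out (Rxrg, without TrbE10 replicate 2), 1 with Y-linked signal as a covariate (Rxrg) and 2 in TrbE14 with SAM; the cause was not tested. The replicate numbers did not pair the hearts throughout. Correlations of same-numbered deviations were -0.20 to 0.05 between control and either mutant. Between TrbE10 and TrbE14 they were 0.01 to 0.47, above 0.1 in 3 of these 4 pairs. Differently numbered TrbE10 and TrbE14 hearts gave -0.50 to 0.40, and 0 hearts correlated best with their own number in both other groups. With the numbers as a replicate block, 0 members were called in each comparison. The members' median was -0.16 in TrbE10, -0.0003 in TrbE14 and -0.16 between the mutants, which the balanced block fixed in advance. Genes called over the whole array in TrbE10 (344) were 533 with SAM, 217 with only the 2 groups and 165 with no filter, and 135 to 586 with 1 array left out. In TrbE14 (120) they were 264 with SAM, 202 with normexp correction and 71 to 158, and between the mutants (0) 2 with SAM, 1 with 75th-percentile scaling or no filter, and 0 to 1. In simulated data with each probe's own spread, limma recovered 16.4% of changes of 0.5 log2 units and 77.6% of changes of 1. SAM recovered 14.9% and 59.7%. Small differences, above all those of members with wide spread, were thus mostly not detectable with 4 hearts a group. A count of 0 called does not show that the members were unchanged.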

Other observations

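Enzymes of the tricarboxylic acid cycle, which burns the acetyl-CoA that β-oxidation releases, were measured for all 12 listed genes. All 12 were below control in TrbE10, with a median difference of -0.17 (all genes: 54.6% below 0, median -0.02), and all 12 were below control in TrbE14, with a median of -0.09 (all genes: 55.7% below 0, median -0.03). One of them, Fh1 (fumarate hydratase), was called in TrbE10 (-0.36 ± 0.07, limma adjusted p = 0.0372), and none in TrbE14. Of all genes, 1.91% were called in TrbE10 and 0.666% in TrbE14. A second Fh1 probe was not called in TrbE10 (-0.22 ± 0.09, limma adjusted p = 0.269). The summed signal of the 12 genes was 870048 to 919356 in control hearts, 759233 to 851217 in TrbE10 and 805037 to 858901 in TrbE14. By this sum all 8 mutant hearts lay below all 4 controls. By the median over the list, TrbE14 replicate 2 (-0.025) lay within the control range (-0.032 to 0.038). Gene by gene, 3 of 12 lay wholly below control in TrbE10 (all genes: 5.48%) and 2 in TrbE14 (all genes: 5.32%).

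Dbp, an output gene of the circadian clock, varied within every group. In 1 heart of each group it was lowest by more than 1 log2 unit: 11.20 in control replicate 1 against 13.95 or more in the other controls, 11.81 in TrbE10 replicate 2 against 13.75 or more, and 11.98 in TrbE14 replicate 2 against 13.42 or more.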
